A study of Mus musculus with 10 samples.

Results

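Mbp encodes myelin basic protein, and its transcripts were read by 8 separate probe sets on the expression arrays of newborn mice without the homeodomain factor Nkx2.2. The probe sets were taken by 1 rule, that the platform's gene symbol field includes Mbp. This gave 8 of the 45037 non-control probe sets, for 1 of 18193 named genes, and in 0 of the 8 did the field also hold another gene. Mbp itself was chosen from its measured difference between the genotypes in these same arrays, so its values are given as a description, without a test, and nothing is supported with them.

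The 2 groups were 5 Nkx2.2-/- mice (replicates 11, 12, 22, 29 and 43) and 5 wild-type littermates (replicates 14, 15, 16, 18 and 21), all of strain C57BL/6 and aged 1.5 to 2 postnatal days. RNA came from pons, medulla and rostral spinal cord, collected from 20 µm sections, and each mouse had its own array. The mice were perfused with saline under pentobarbital. The labels give no sex, no batch and not which mice share a litter, and they do not say how the Nkx2.2 allele was made. The study asked which transcripts differ in nervous tissue without Nkx2.2.

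Myelin basic protein lies on the cytoplasmic face of the myelin membrane and holds its layers together. Mice that lack it fail to form compact central myelin and shiver. Its mRNA is carried out into the oligodendrocyte processes and translated there, next to the growing sheath. The locus makes 2 families of transcripts: the classic ones, which start at a downstream promoter and are made in bulk by myelinating glia, and the golli ones, which start far upstream, share exons with the classic ones and are also found in oligodendrocyte precursors, neurons and lymphoid cells. Splicing gives several isoforms within each family. Around birth the hindbrain and upper cord are where myelination of the brain begins.

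The platform annotation gave no transcript region, classic or golli, for any of the 8 probe sets. It listed a source accession for 4 of them (1419646_a_at, 1436201_x_at, 1451961_a_at and 1454651_x_at) and none for the other 4. By the array maker's naming, an ID ending in _a_at reads alternative transcripts of 1 gene, one in _s_at reads transcripts that can come from different genes, and one in _x_at holds some probes that can bind unrelated transcripts. By that naming 4 of the 8 are of the first kind, 1 of the second and 3 of the third. Probe sets of 1 gene can read overlapping stretches of the same mRNA, so they are not replicates of each other. Values are log2 signals, and the level of 1 probe set is not an amount of RNA that can be set against the level of another.

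The Mbp probe sets fell into 2 kinds. In 5 of the 8 all 5 Nkx2.2-/- mice lay below all 5 wild-type mice, with mean signals 5.80-fold to 6.67-fold lower. In the other 3 the genotypes overlapped. Of all probe sets on the array, 0.442% had Nkx2.2-/- mice entirely below wild type and 0.315% entirely above. Since the gene was chosen for this contrast, the 5 of 8 are not read against those shares.

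Probe set 1433532_a_at was the brightest. It read 7.33, 8.35, 8.16, 7.80 and 8.61 in Nkx2.2-/- replicates 11, 12, 22, 29 and 43, against 10.94, 10.83, 10.93, 10.36 and 10.87 in wild-type replicates 14, 15, 16, 18 and 21. The groups stood apart by 1.75 between the highest Nkx2.2-/- mouse and the lowest wild-type mouse. The means were 8.05 ± 0.499 in Nkx2.2-/- mice and 10.79 ± 0.245 in wild-type mice (SD, n = 5 each), a log2 difference of -2.74 (SE 0.248) or 6.67-fold lower. In brightness the Nkx2.2-/- mean exceeded 93.5% of all probe sets and the wild-type mean 99.5%, so Mbp signal remained well within the upper range of the array in the Nkx2.2-/- mice.

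Probe set 1419646_a_at read 6.74, 7.41, 7.21, 6.83 and 7.49 in Nkx2.2-/- replicates 11, 12, 22, 29 and 43, against 9.72, 9.76, 9.80, 9.30 and 9.88 in wild-type replicates 14, 15, 16, 18 and 21. Its means were 7.14 ± 0.338 in Nkx2.2-/- mice and 9.69 ± 0.227 in wild-type mice (SD, n = 5 each), a log2 difference of -2.55 (SE 0.182). This probe set had the widest gap between the groups, 1.81. Its brightness exceeded 86.6% of probe sets in Nkx2.2-/- mice and 98.4% in wild-type mice.

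The 3 probe sets ending in _x_at moved with those. Probe set 1436201_x_at read 5.79, 6.28, 6.36, 5.99 and 6.47 in Nkx2.2-/- replicates 11, 12, 22, 29 and 43, and 8.89, 8.79, 8.93, 8.20 and 8.98 in wild-type replicates 14, 15, 16, 18 and 21, a log2 difference of -2.58 (SE 0.189). Probe set 1456228_x_at read 5.55, 6.42, 6.23, 5.74 and 6.43 in the same Nkx2.2-/- mice and 8.71, 8.74, 8.94, 8.15 and 8.94 in the same wild-type mice, a log2 difference of -2.62 (SE 0.231). The lowest wild-type mouse was 1.73 log2 units above the highest Nkx2.2-/- mouse in the first and 1.72 in the second.

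Probe set 1454651_x_at, the dimmest of the 5, read 4.60, 5.40, 5.36, 4.97 and 5.53 in Nkx2.2-/- replicates 11, 12, 22, 29 and 43, against 7.82, 7.80, 7.87, 7.14 and 7.89 in wild-type replicates 14, 15, 16, 18 and 21. The log2 difference was -2.54 (SE 0.223), and the groups were 1.61 apart. In Nkx2.2-/- mice its mean lay above only 52.6% of all probe sets, close to the middle of the array, against 91.2% in wild-type mice. RMA values carry no detection call, and differences between dim probe sets are compressed towards 0. The 5 log2 differences ran from -2.74 to -2.54, a range of 0.203. Each SE measures the spread between mice, and the 5 probe sets were read on the same arrays. The SEs therefore do not say how far the probe sets differ from each other.

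**Figure D1:**
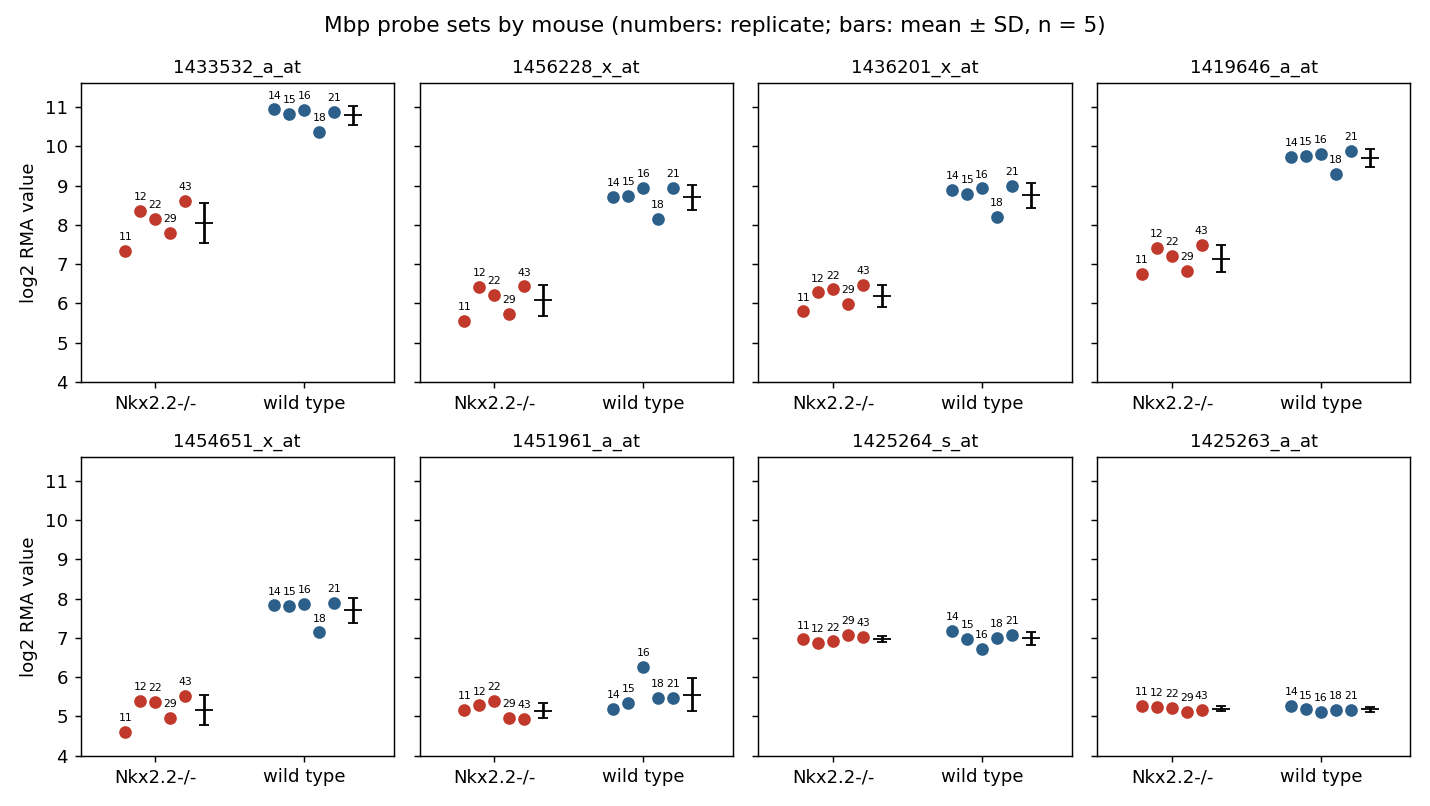
Log2 RMA value (vertical axis) of each of the 8 Mbp probe sets in Nkx2.2-/- mice (left of each panel) and wild-type mice (right), with replicate numbers above the points and bars for mean ± SD (n = 5). In 5 panels the genotypes stand 1.61 to 1.81 log2 units apart, and in the other 3 they overlap.

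The other 3 probe sets did not separate the genotypes. Probe set 1425264_s_at read 6.96, 6.88, 6.91, 7.07 and 7.03 in Nkx2.2-/- replicates 11, 12, 22, 29 and 43, and 7.17, 6.97, 6.72, 6.996 and 7.08 in wild-type replicates 14, 15, 16, 18 and 21. All 5 Nkx2.2-/- mice lay inside the wild-type range. The log2 difference was -0.02 (SE 0.0831). This probe set was not dim: its mean exceeded 84.8% of probe sets in Nkx2.2-/- mice and 84.7% in wild-type mice. By the array maker's naming it may also read transcripts of other genes.

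Probe set 1425263_a_at read 5.26, 5.23, 5.22, 5.12 and 5.16 in Nkx2.2-/- replicates 11, 12, 22, 29 and 43, against 5.27, 5.18, 5.11, 5.16 and 5.17 in wild-type replicates 14, 15, 16, 18 and 21. The log2 difference was 0.02 (SE 0.0349), with SDs of 0.0540 in Nkx2.2-/- mice and 0.0563 in wild-type mice, the smallest of the 8. Its brightness was near the middle of the array, above 53.5% of probe sets in Nkx2.2-/- mice and 52.6% in wild-type mice. Whether it read any Mbp transcript in this tissue was not tested.

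Probe set 1451961_a_at read 5.17, 5.28, 5.40, 4.97 and 4.93 in Nkx2.2-/- replicates 11, 12, 22, 29 and 43, against 5.20, 5.35, 6.26, 5.48 and 5.48 in wild-type replicates 14, 15, 16, 18 and 21. Of the Nkx2.2-/- mice 3 lay below every wild-type mouse, and wild-type replicate 16 lay far above the other 4 wild-type mice. The means were 5.15 ± 0.198 in Nkx2.2-/- mice and 5.55 ± 0.412 in wild-type mice (SD, n = 5 each), a log2 difference of -0.41 (SE 0.205). Without wild-type replicate 16 the difference was -0.23. That mouse was not out of place in the 5 probe sets that separated the genotypes, and it read lowest of all 10 mice in 1425264_s_at.

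The 5 separated probe sets varied together between mice of 1 genotype. After each genotype's mean was subtracted, Pearson's r over the 10 arrays ran from 0.896 to 0.986 among their 10 pairs, with a median of 0.952. These probe sets share a gene and an array, so the correlations describe how alike they read and no more. Between a separated probe set and one of the other 3 it ran from -0.247 to 0.250 (15 pairs, median -0.06). Of the 3 pairs among those 3, the pair of 1425264_s_at and 1451961_a_at stood at -0.931, and in both of them wild-type replicate 16 was the mouse farthest from its group mean.

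Single mice lay on the same side of their genotype mean in all 5 separated probe sets, while the order of the 4 higher wild-type mice differed between probe sets. Among Nkx2.2-/- mice, replicate 11 was lowest, at -0.52 from the genotype mean when averaged over the 5, and replicate 29 was at -0.26. Replicates 22, 12 and 43 were above it by 0.14, 0.25 and 0.38. Among wild-type mice replicate 18 was at -0.50 from the mean, and the other 4 lay between 0.06 and 0.19 above it. Averaged over the 5 probe sets, the SD between mice was 0.376 in Nkx2.2-/- mice and 0.283 in wild-type mice, and the ranges were -3.13 to -2.22 in Nkx2.2-/- mice relative to the wild-type mean and -0.50 to 0.19 in wild-type mice.

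**Figure D2:**
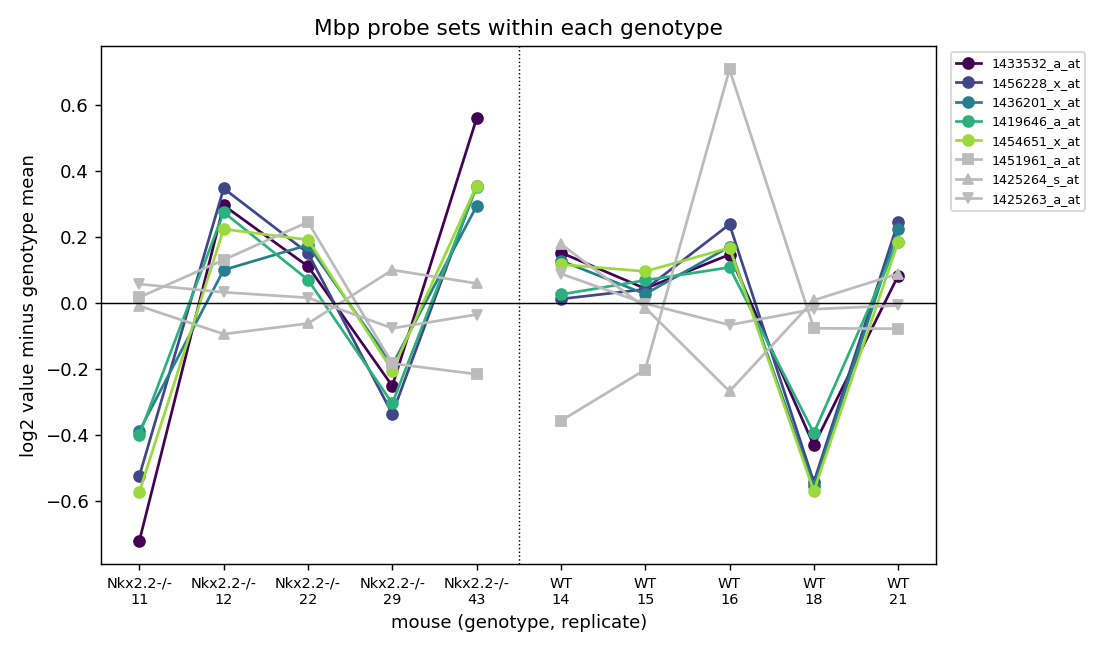
Log2 value minus genotype mean (vertical axis) of the 8 Mbp probe sets in each mouse, Nkx2.2-/- mice at left and wild type (WT) at right. The 5 probe sets that separated the genotypes (coloured) run together, lowest in Nkx2.2-/- replicate 11 and wild-type replicate 18, and the other 3 (grey) do not follow them.

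The lowest mouse of each genotype in Mbp was also its lowest in regional markers. The mean of 8 measured markers of hindbrain and cord, among them Hoxa5 and Hoxb5, was 6.40 in Nkx2.2-/- replicate 11 and 6.81 to 7.34 in the other 4 Nkx2.2-/- mice. It was 6.32 in wild-type replicate 18 and 6.92 to 7.22 in the other 4 wild-type mice. The ranges of the genotypes thus overlapped, the median log2 difference of the 8 was 0.06, and 0 of them passed in either direction (limma). Over all genes counted by their brightest probe set, 0.0605% fell and 0% rose. Without those 2 mice the differences of the 5 Mbp probe sets ran from -2.67 to -2.54, and with the marker mean as a covariate from -2.79 to -2.59, both chosen after seeing the data. The same mice were also the lowest of their genotype in markers of neurons, at 9.61 for Nkx2.2-/- replicate 11 and 9.77 for wild-type replicate 18, and of oligodendrocyte precursors, at 7.18 and 7.35. Nkx2.2-/- replicate 29, second lowest of its genotype in Mbp, had a regional marker mean of 7.33. The part of tissue makeup in the rank of these mice was not tested.

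RNA quality differed on 2 arrays. The 3 prime control probe set of Gapdh exceeded the 5 prime one by 3.78 in Nkx2.2-/- replicate 43 and by 2.13 in wild-type replicate 14, against -0.32 to 0.13 on the other 8. Replicate 43 was the highest Nkx2.2-/- mouse in all 5 separated probe sets, and wild-type replicate 14 lay inside the range of the other wild-type mice in 4 of them and was highest by under 0.01 in the brightest. Without both arrays the 5 differences ran from -2.84 to -2.60.

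Nkx2-2 itself, read by 1 probe set, was 4.73, 4.34, 4.24, 4.58 and 4.64 in Nkx2.2-/- replicates 11, 12, 22, 29 and 43, and 6.88, 6.47, 6.49, 6.51 and 6.42 in wild-type replicates 14, 15, 16, 18 and 21. The labels thus matched the signal in every mouse (log2 difference -2.05, limma SE 0.111, limma adjusted p = 7.23e-05 over all probe sets). Where this probe set lies in the gene was not known here. Markers of neurons were bright in every mouse, with a mean over 6 genes of 9.61 to 10.17 in Nkx2.2-/- mice and 9.77 to 9.98 in wild-type mice. All 8 measured markers of hindbrain and cord had means above the middle of the array in both genotypes, and of 5 forebrain markers 3 were below it in Nkx2.2-/- mice and 4 in wild-type mice.

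Mbp is also made outside oligodendrocytes, so markers of those cells were read beside it. Of 5 measured Schwann cell genes, 0 passed in either direction (limma, 0 also at an unadjusted p under 0.05), with a median log2 difference of -0.02. Over all genes counted by their brightest probe set, 0.0605% fell and 0% rose. The mean level of the 5 Schwann cell genes was 4.92 to 5.22 in Nkx2.2-/- mice and 4.96 to 5.34 in wild-type mice. Of the 5, 3 in Nkx2.2-/- mice and 4 in wild-type mice were below the middle of the array. Of 6 lymphocyte genes, 5 were below the middle of the array in both genotypes, and the mean level was 4.76 to 4.85 in Nkx2.2-/- mice and 4.77 to 4.85 in wild-type mice. In whole tissue, fewer oligodendrocytes and less Mbp RNA in each cell cannot be told apart.

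Genes of oligodendrocyte precursors and newly committed cells were read as well. Over all genes counted by their brightest probe set, 0.0605% fell and 0% rose, so few calls would be met in a list this short. Of 8 measured, 0 passed over all probe sets (limma; 3 lower and 1 higher at an unadjusted p under 0.05), and the median log2 difference was -0.06. Members went both ways. Pdgfra, the growth factor receptor of precursors, averaged 8.39 ± 0.382 in Nkx2.2-/- mice and 7.87 ± 0.143 in wild-type mice (SD, n = 5 each), a log2 difference of 0.52 that did not pass (limma adjusted p = 0.9997). Bcas1, a gene of cells that are starting to myelinate, was the only one whose genotypes did not overlap, and both were named after their values were seen. Bcas1 averaged 7.45 ± 0.228 in Nkx2.2-/- mice and 8.21 ± 0.287 in wild-type mice (SD, n = 5 each), a log2 difference of -0.77 that did not pass (limma adjusted p = 0.334). Over every probe set on the array, 0.442% had Nkx2.2-/- mice entirely below wild type.

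Most other measured genes of the myelin sheath were lower by sign. Over the whole array 23 probe sets, 0.0511%, fell and 0% rose in Nkx2.2-/- mice (limma, Benjamini-Hochberg adjusted p under 0.05). The 23 include 5 Mbp probe sets, which are counted there only as part of that share. Of the 1545 with an unadjusted p under 0.05, 486 were higher. Counting each gene by its brightest probe set, 0.0605% of genes, Mbp among them, fell and 0% rose. Of 22 measured myelin sheath genes other than Mbp, 5 fell and 0 rose. At an unadjusted p under 0.05, 12 were lower and 0 higher. By sign 18 were lower, some by very little, such as Mpzl1 at -0.0035. The share lower by sign over all genes was not computed. The median log2 difference of the 22 was -0.21, against -0.0042 over all genes counted this way. Of the 22, 4 had means below the middle of the array in Nkx2.2-/- mice, and 4 in wild-type mice. Differences of such dim probe sets are compressed towards 0. Mbp was chosen for its difference, so the sizes are not read against each other. In 10 of the 22 all Nkx2.2-/- mice lay below all wild-type mice. Over every probe set on the array that share was 0.442%, and it was not computed for the brightest probe set of each gene. With the mean of caudal Hox genes as a covariate the count of 5 became 1, and Cnp was the gene left (log2 difference -1.09, limma adjusted p = 0.0325). The fitted differences of the other 4 were then -0.77 for Mobp, -0.57 for Mag, -1.04 for Cldn11 and -1.09 for Ugt8a, close to those without the covariate. The 8 measured caudal Hox genes were all higher by sign in Nkx2.2-/- mice and 0 of them passed (limma; 2 higher at an unadjusted p under 0.05), with a mean level of 5.12 to 5.63 in Nkx2.2-/- mice and 5.005 to 5.16 in wild-type mice. With that covariate the 5 separated Mbp probe sets had differences from -2.86 to -2.58.

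Cnp, an enzyme of the cytoplasmic side of the oligodendrocyte membrane, had 3 probe sets, of which 1 fell. The brightest, 1437341_x_at, averaged 8.29 ± 0.107 in Nkx2.2-/- mice and 9.26 ± 0.209 in wild-type mice (SD, n = 5 each), a log2 difference of -0.97 (limma adjusted p = 0.00230). The other 2 had log2 differences of -0.81 and -0.35 and did not pass (limma adjusted p = 0.232 and 0.9997). Leaving out Nkx2.2-/- replicate 43 and wild-type replicate 14, or with the Gapdh difference as a covariate, the first of those passed (limma adjusted p = 0.0205 and 0.00294).

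The probe sets of Mobp, which encodes another small basic protein of the compact sheath, were also divided. Of its 5 probe sets 3 fell, and log2 differences ran from -1.59 to 0.05. Probe set 1433785_at had the largest fall, with a mean of 4.32 ± 0.0531 in Nkx2.2-/- mice and 5.90 ± 0.279 in wild-type mice (SD, n = 5 each, limma adjusted p = 2.52e-04). Probe set 1441308_at had a log2 difference of 0.05 and did not pass (limma adjusted p = 0.9997). It was dim, above 29.4% of probe sets in Nkx2.2-/- mice and 26.9% in wild-type mice. Probe set 1450088_a_at had a log2 difference of -0.40 that did not pass (limma adjusted p = 0.635), with the genotypes 0.0682 apart. The third to fall, 1421010_at, had a log2 difference of -0.77 (limma adjusted p = 0.0101) and no longer passed without Nkx2.2-/- replicate 29 (limma adjusted p = 0.0533) or with the caudal Hox covariate (log2 difference -0.72, limma adjusted p = 0.539). Whether the split within Mobp follows its isoforms or the brightness of its probe sets was not tested.

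The single probe sets of Mag and Cldn11 fell and that of Mog did not pass. Mag, a glycoprotein of the innermost myelin membrane, had a log2 difference of -0.60 (limma SE 0.0686, limma adjusted p = 0.00894). Cldn11, the tight junction claudin of central myelin, had one of -1.14 (limma SE 0.133, limma adjusted p = 0.0101). Cldn11 no longer passed when Nkx2.2-/- replicate 43 and wild-type replicate 14 were left out (limma adjusted p = 0.0596). Nor did it pass without Nkx2.2-/- replicate 11 and wild-type replicate 18 (limma adjusted p = 0.0619). Mog, a protein of the outer sheath surface, had a log2 difference of -0.30 (limma adjusted p = 0.216), which passed with the trend prior (limma adjusted p = 0.0333). Mog was dim, with means of 4.04 in Nkx2.2-/- mice and 4.34 in wild-type mice, above 2.65% and 13.6% of probe sets. Ugt8a, the galactosyltransferase of myelin lipid synthesis, had a log2 difference of -1.07 at the edge of the threshold (limma adjusted p = 0.0490). Leaving out any 1 array other than Nkx2.2-/- replicate 43 ended the call of Ugt8a, with limma adjusted p from 0.0587 to 0.235, and so did repeated quantile scaling, a common median and the robust prior (0.0541 to 0.0645). With the trend prior it passed (limma adjusted p = 0.00843).

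**Figure D3:**
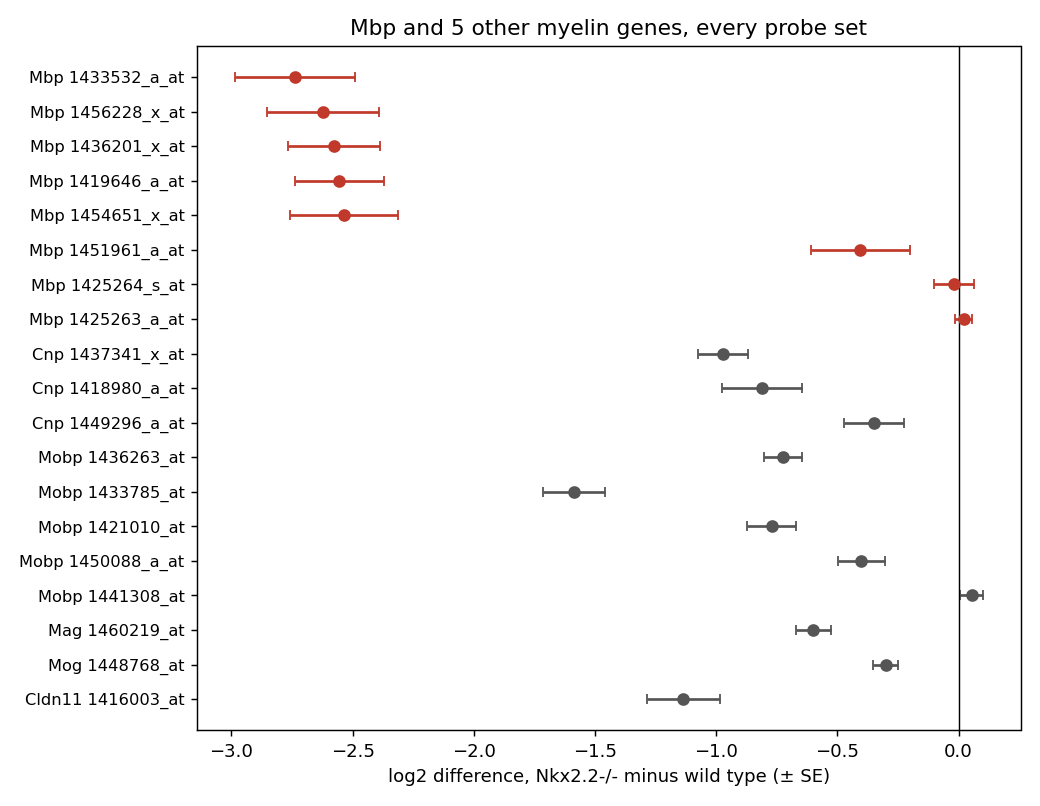
Log2 difference, Nkx2.2-/- minus wild type, with its pooled SE (horizontal axis) for every probe set of Mbp (red) and of 5 other myelin genes (grey). For genes other than Mbp the text gives the limma SE, which differs from the bar. The Mbp probe sets cluster between -2.74 and -2.54 or between -0.41 and 0.02, and the other genes lie between -1.59 and 0.05.

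Of 26 measured regulators of Mbp transcription, 1 fell and 0 rose (limma), with a median log2 difference of -0.03. The 1 that fell was Nkx2-2, the factor these mice lack. At an unadjusted p under 0.05, 2 were lower, Nkx2-2 and Myrf, and 0 higher. Over all genes counted by their brightest probe set, 0.0605% fell and 0% rose. Sox10, which binds and activates myelin genes throughout the lineage, had a log2 difference of 0.06, and Olig1 and Olig2, basic helix-loop-helix factors of the lineage, had 0.13 each. None of the 3 passed (limma adjusted p = 0.9997 each), and they were named after their values were seen. Myrf, the factor that turns on myelin genes as oligodendrocytes mature and the only one besides Nkx2-2 whose genotypes did not overlap, averaged 6.60 ± 0.149 in Nkx2.2-/- mice and 6.94 ± 0.109 in wild-type mice (SD, n = 5 each). Its log2 difference of -0.34 did not pass (limma adjusted p = 0.668), and it too was named after its values were seen. Over every probe set on the array, 0.442% had Nkx2.2-/- mice entirely below wild type.

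Genes that carry and hold back Mbp mRNA, and enzymes that act on the protein, were counted in the same way. Over all genes 0.0605% fell and 0% rose, so counts of 0 in lists this short say little about their members. Of 14 measured, 0 fell and 0 rose (limma; 1 lower at an unadjusted p under 0.05), with a median log2 difference of -0.07. The 2 of lowest p were Hnrnpa2b1, whose product binds the transport signal in the Mbp mRNA, and Hnrnpf, another RNA-binding protein of the transport granules. Their log2 differences were -0.23 and -0.18 (limma adjusted p = 0.9997 for each). Of 5 measured enzymes that modify or cleave the protein, 0 passed in either direction (limma; 0 at an unadjusted p under 0.05). The 2 of lowest p were the arginine methyltransferase gene Prmt1, with a log2 difference of -0.20, and the calpain gene Capn1, with one of -0.07. Without Nkx2.2-/- replicate 43, an array of low 5 prime Gapdh signal, both were -0.02.

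**Figure D4:**
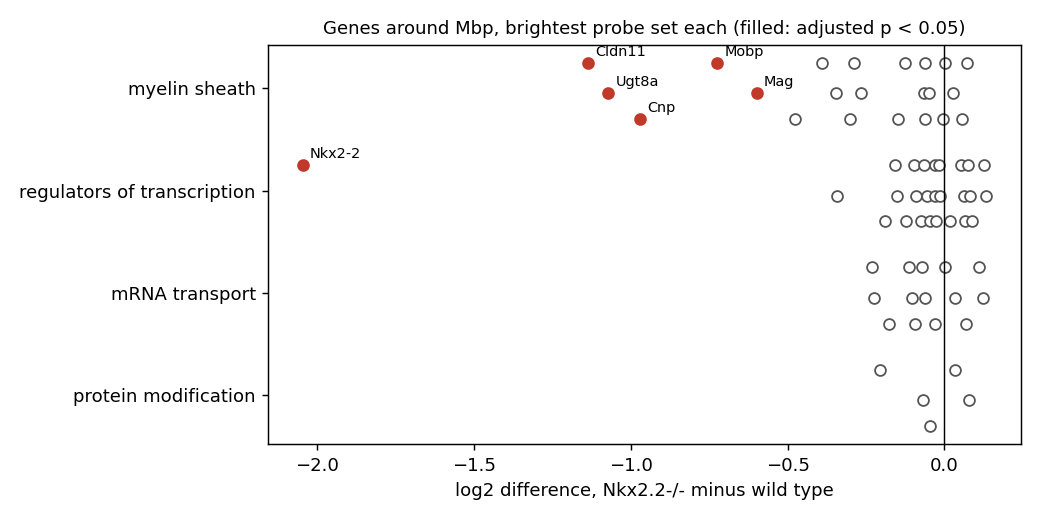
Log2 difference, Nkx2.2-/- minus wild type (horizontal axis), of genes grouped by their relation to Mbp, each by its brightest probe set, with filled points for an adjusted p under 0.05 and vertical offsets only to keep points apart. Of 22 myelin sheath genes 5 fell, of 26 regulators of transcription only Nkx2-2 fell, and 0 of 14 genes of mRNA transport and 0 of 5 of protein modification passed. Over all genes 0.0605% fell and 0% rose.

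The genes next to Mbp on its chromosome did not move with it. Its 3 protein-coding neighbours on either side, by RefSeq's genes on GRCm38.p6, were Atp9b, Sall3 and Galr1 on one side and Zfp236, Zfp516 and Tshz1 on the other. Their 14 probe sets had log2 differences from -0.05 to 0.27, and 0 passed (limma adjusted p = 0.9997 each; 0 at an unadjusted p under 0.05). Over every probe set on the array 0.0511% fell and 0% rose.

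Likeness to the brightest Mbp probe set was ranked among 19585 other probe sets with 1 gene symbol and a mean above the middle of the array. By Pearson's r of the values over the 10 arrays, the 6 most alike were Cnp (0.974), Mobp (0.961), Ugt8a (0.958), Snx5 (0.954), Plxnb3 (0.949) and Nkx2-2 (0.945). All 6 differ between the genotypes, the contrast for which Mbp was chosen, so this order is a description only. Mobp 1433785_at and Nkx2-2 were among those compared only through their wild-type level, since their Nkx2.2-/- means of 4.32 and 4.51 lie below the middle of the array, 5.09. Snx5, a sorting nexin of endosomes, averaged 6.10 ± 0.0744 in Nkx2.2-/- mice and 6.72 ± 0.0834 in wild-type mice (SD, n = 5 each, limma adjusted p = 7.32e-04), and Plxnb3, a plexin receptor, had a log2 difference of -0.62 (limma adjusted p = 0.00225). With the caudal Hox mean as a covariate neither passed (limma adjusted p = 0.0549 for Snx5 and 0.156 for Plxnb3), with log2 differences of -0.56 and -0.57.

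With genotype means subtracted, that order changed. Over the 10 arrays Ugt8a remained at 0.755 and Cnp at 0.654, but Mobp stood at 0.288, Plxnb3 at 0.240, Snx5 at 0.186 and Nkx2-2 at -0.221. The 6 most alike by this measure were Ufsp1 (0.888), Gm715 (0.883), Mal (0.869), Clcn5 (0.867), Epha7 (0.860) and Gfap (0.855), a choice of the highest among many that favours large values. Of these Mal, a myelin proteolipid, had in this probe set (1417275_at) a log2 difference of -0.34 that did not pass (limma adjusted p = 0.9997). The likeness did not hold for the brightest Mal probe set, by which Mal is counted among the 22 myelin sheath genes. That probe set had a genotype-centred r of 0.0436. Its log2 difference was -0.06 and did not pass (limma adjusted p = 0.9997). Across the 22 myelin sheath genes the genotype-centred r was positive for 17 and had a median of 0.328, against a median of 0.0266 over the 19585. The 19585 were limited to probe sets above the middle of the array and the 22 were not. The share with a positive r over the 19585 was not computed. The Mbp probe set least like the brightest by this measure was 1425263_a_at, and the 3 most like it were Kif15 (0.959), Sipa1l1 (0.949) and Sfrp1 (0.948), none of which passed between the genotypes (limma adjusted p = 0.9997 each).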

How the data were processed

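Expression was measured on 1 array for each of 5 Nkx2.2-/- and 5 wild-type mice, grouped by sample title. The authors deposited log2 values, and the submitters' processing notes name RMA, with its version not given in the sources used here. That method subtracts background, sets arrays to 1 common distribution and reduces the probes of a set to 1 value, which hides any shift common to most transcripts. Of 45101 probe sets, 64 controls were left out and no filter on dim ones was applied. Symbols came from the platform's annotation.

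Every probe set was fitted with lmFit and eBayes of limma 3.58.1 (R 4.3.3) with genotype as the only term, and p-values were adjusted by Benjamini-Hochberg across 45037 probe sets with a threshold of 0.05. The 8 Mbp probe sets were in that fit, which gave their differences under covariates, and no p-value is printed for them. Their means, SDs, differences and pooled SEs were computed in Python 3.11.15 with pandas 2.3.3. List genes were counted by their probe set of highest mean. The members, lists and rule for named genes were chosen with earlier results of these data known. Named were Nkx2-2, every probe set of 5 myelin genes, chromosomal neighbours, list members of lowest p and the probe sets most like Mbp. The fit was tested on simulated data. The mice are separate littermates, with no record of which share a litter, and the number of arrays limits the precision. Alternatives were other scalings, priors, weights, thresholds, filters, covariates and left-out arrays.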

Additional observations from a re-analysis of the deposited data

Results flagged for a closer look

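In 12 of the 114 groups of 5 values looked at, the highest or lowest mouse stood apart from the nearest other by more than 0.71 of the group's range, a gap that chance gives in about 1 of 20 groups. Of 16 groups of Mbp values 5 were of this kind. Wild-type replicate 18 was the low one in 4 of the 5 probe sets that separated the genotypes, at 10.36 in 1433532_a_at, 9.30 in 1419646_a_at, 8.20 in 1436201_x_at and 7.14 in 1454651_x_at. These 4 read 1 gene on 1 array and do not count as separate mice. Wild-type replicate 16 was the high one in Mbp 1451961_a_at, at 6.26.

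Outside Mbp, wild-type replicate 14 was high in Nkx2-2 (6.88) and low in Hnrnpk (10.20). Nkx2.2-/- replicate 43 was low in Prmt1 (8.22) and in Klk6 (4.43). Nkx2.2-/- replicate 11 was high in Mag (5.67) and low in Gfap (5.01), and wild-type replicate 16 was low in Zfp236 (6.13).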

How the results depend on the processing

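All 152 values of the 8 Mbp probe sets under 19 alternatives each stayed within 1 SD between mice of the value reported. Leaving out 1 array, or 1 of each genotype, cannot move a difference of 5 against 5 mice by 1 SD. For those settings this outcome was fixed in advance. Leaving out 1 array at a time, the difference ran from -2.88 to -2.56 in 1433532_a_at, -2.65 to -2.46 in 1419646_a_at, -2.72 to -2.48 in 1436201_x_at, -2.76 to -2.49 in 1456228_x_at and -2.68 to -2.39 in 1454651_x_at, and from -0.08 to 0.03 in 1425264_s_at, 0.00489 to 0.0437 in 1425263_a_at and -0.49 to -0.23 in 1451961_a_at. The count of 23 lower probe sets became 11 with only the brightest probe set of each gene, where fewer were tested, and 9 with the caudal Hox mean as a covariate. The count of 5 myelin sheath genes became 1 with that covariate, 3 at an adjusted p threshold of 0.01, and 3 when Nkx2.2-/- replicate 11 and wild-type replicate 18 were both left out, an alternative added after seeing the data and run with fewer samples. The fitted differences of the 4 genes lost with the covariate were -0.77 (Mobp), -0.57 (Mag), -1.04 (Cldn11) and -1.09 (Ugt8a), and the cause was not tested. For the 49 named probe sets outside Mbp, 1022 of 1048 comparisons kept their side of the threshold, 23 no longer passed and 3 newly passed. The sign changed in 33 of them, in 15 probe sets, of which 0 passed (limma adjusted p = 0.9997 each). No paired analysis was possible because the labels do not say which mice share a litter. Dim probe sets and RMA's lack of detection calls limit what small differences can show.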
